A study of Homo sapiens with 15 samples.

Results

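The 41 genes described here are glycolysis and hypoxia response genes, measured by RNA sequencing in the human melanoma line A375, which carries an activating BRAF mutation. They were taken by symbol from every library, and all 41 were listed among the 16768 symbols of the vehicle and saracatinib libraries and the 16295 symbols of the untreated libraries. They comprise 2 HIF alpha subunits, 4 glucose and lactate transporters, 2 PFK2 regulators, 17 glycolytic enzymes and 16 other genes known as targets of HIF. The 15 libraries fall into 5 groups of 3. One experiment holds VAV1-overexpressing cells given saracatinib, VAV1-overexpressing cells given vehicle, and empty-vector cells given vehicle. The other holds cells overexpressing RAC1 with the P29S substitution and empty-vector cells, both untreated. VAV1 is a guanine nucleotide exchange factor of blood cells that activates RAC1, RAC1 P29S is a melanoma-associated form of that small GTPase, and saracatinib inhibits kinases of the SRC family. The drug's dose and time, the promoter of the transgenes and whether cells were pools or clones are not given in the sources used here, and no group combines empty vector with saracatinib. The submitters describe the replicates as biological. Samples were grouped by title, since the samples titled RAC1 P29S carry the empty vector in their genotype field, and RAC1 followed the titles.

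Glycolysis turns glucose into pyruvate, and cells then reduce pyruvate to lactate or burn it in mitochondria. The HIF transcription factors pair an oxygen-labile alpha subunit with a stable ARNT partner, and raise glucose uptake, glycolytic enzymes, pH regulation, angiogenesis and mitophagy when oxygen is low. In melanoma cells these genes are also driven by MAPK, PI3K and MYC signals without low oxygen. HIF alpha subunits are controlled mainly by protein breakdown, so their transcripts do not measure HIF activity. The labels give no low-oxygen treatment for any group.

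Levels are on the log2(normalized count + 1) scale of the deposited values, and a fold change is a difference on that scale. Levels are not set against each other between genes, because the values are not per length, or between the experiments, which were normalized apart. The read depth of the libraries is unknown. Each library summed to 14443918 to 16262759 normalized counts, and correlations between libraries were 0.98 to 0.985 within groups and 0.956 to 0.972 between groups of one experiment. The transgenes followed the titles: VAV1 averaged 14.12 ± 0.03 with saracatinib, 13.91 ± 0.04 with VAV1 and vehicle and 2.22 ± 0.30 with empty vector and vehicle, and RAC1 averaged 14.93 ± 0.03 with RAC1 P29S and 11.88 ± 0.02 with empty vector (SD, n = 3 each). Melanocyte lineage markers were incomplete, with 4 to 6 of 8 reaching a normalized count of 10 in a group and TYR and DCT under it in every group. Their summed normalized count was 3330 to 3488 with saracatinib, 2901 to 3050 with VAV1 and vehicle and 8252 to 8763 with empty vector and vehicle. It was 5134 to 5500 with RAC1 P29S and 9652 to 10527 in its empty-vector cells. Of 5 epithelial markers, EPCAM, CDH1 and KRT5 were under 10 in every group, and the summed count was 7962 to 8382 with saracatinib, 12924 to 13895 with VAV1 and vehicle and 5886 to 6672 with empty vector and vehicle, and 6041 to 6745 with RAC1 P29S and 2920 to 3337 in its empty-vector cells. Of 5 haematopoietic markers, CD3E was under 10 in every group, and the sum was 2449 to 2684 with saracatinib, 1172 to 1221 with VAV1 and vehicle and 702 to 754 with empty vector and vehicle, and 931 to 1034 with RAC1 P29S and 398 to 478 in its empty-vector cells. The lineage, epithelial and haematopoietic sums differ in every transgene comparison below and between saracatinib and vehicle. Their part in the results was not tested.

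The promoter windows of 6 members are shown because these genes were higher with saracatinib, by 0.71 to 2.25 on the log2 scale, and have a single window in the table used. The part shown of each is the 250 bases before the gene's start in RefSeq, on GRCh38.p14. It is written 5′ to 3′ on the gene's strand, with the letters of the HIF recognition core in capitals. The letters searched were ACGTG and GCGTG on both strands, so that CACGT and CACGC are the same cores on the other strand, and CACGTG counts on both. CA9 lies at chr9:35673678-35673927 on the plus strand, BHLHE40 at chr3:4979187-4979436 on the plus strand, and EPAS1 at chr2:46297157-46297406 on the plus strand. ALDOC lies at chr17:28576896-28577145 on the minus strand, PFKFB4 at chr3:48556804-48557053 on the minus strand, and ANKRD37 at chr4:185396591-185396840 on the plus strand. GENCODE 29 starts each of these genes upstream of its RefSeq start, inside the window for CA9 and before it for the other 5.
CA9: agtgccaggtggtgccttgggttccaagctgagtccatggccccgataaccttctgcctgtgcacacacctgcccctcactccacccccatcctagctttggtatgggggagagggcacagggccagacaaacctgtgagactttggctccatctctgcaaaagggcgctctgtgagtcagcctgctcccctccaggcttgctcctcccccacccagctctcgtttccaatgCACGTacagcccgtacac
BHLHE40: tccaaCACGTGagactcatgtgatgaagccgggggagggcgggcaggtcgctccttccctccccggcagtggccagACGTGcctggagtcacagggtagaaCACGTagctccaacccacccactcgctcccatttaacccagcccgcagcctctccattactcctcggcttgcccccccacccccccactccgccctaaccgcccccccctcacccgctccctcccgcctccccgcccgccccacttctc
EPAS1: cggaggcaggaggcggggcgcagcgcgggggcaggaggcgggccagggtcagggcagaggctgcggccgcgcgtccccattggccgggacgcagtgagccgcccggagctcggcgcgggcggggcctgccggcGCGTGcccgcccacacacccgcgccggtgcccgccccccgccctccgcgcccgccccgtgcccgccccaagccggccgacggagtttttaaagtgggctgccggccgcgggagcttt
ALDOC: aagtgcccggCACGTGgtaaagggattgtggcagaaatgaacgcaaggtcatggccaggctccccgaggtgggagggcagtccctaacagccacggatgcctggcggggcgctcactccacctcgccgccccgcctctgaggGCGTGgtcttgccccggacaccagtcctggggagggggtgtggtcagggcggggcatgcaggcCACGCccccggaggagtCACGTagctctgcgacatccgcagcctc
PFKFB4: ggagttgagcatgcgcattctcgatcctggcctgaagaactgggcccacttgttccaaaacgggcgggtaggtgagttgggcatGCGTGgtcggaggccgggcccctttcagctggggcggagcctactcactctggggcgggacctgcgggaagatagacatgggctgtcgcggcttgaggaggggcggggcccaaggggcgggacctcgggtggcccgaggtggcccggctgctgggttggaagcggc
ANKRD37: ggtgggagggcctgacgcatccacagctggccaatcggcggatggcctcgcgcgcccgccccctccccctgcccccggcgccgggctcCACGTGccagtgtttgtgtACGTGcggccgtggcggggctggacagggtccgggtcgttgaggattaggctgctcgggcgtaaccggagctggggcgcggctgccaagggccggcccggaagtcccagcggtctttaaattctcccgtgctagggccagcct
In the parts shown CA9, EPAS1 and PFKFB4 hold 1 match each, ANKRD37 holds 3, BHLHE40 holds 4 and ALDOC holds 5. The table has windows for 36 of the 41 members, and SLC2A3, SLC16A1, VEGFA, BNIP3L and NDRG1 are named only. For the shares that follow, each whole window was searched, from 250 bases before the start to 50 bases after it. Of these 36 members, 34 (94.4%) have a match in at least 1 window, beside 14318 of 27305 genes (52.4%) in the whole table. With ACGTG alone the shares are 61.1% of members and 24.9% of genes. Counted by window, 46 of 66 member windows (69.7%) and 48.4% of all windows hold a match. The comparison set is every gene of the table, whether or not it was tested here. Many members were listed because they are known HIF targets, so the shares are no independent support. Among the 36 members, 10 of 10 that rose with saracatinib and 24 of the other 26 have a match. A match is so common in this list that this count could hardly separate the 2 sets. For ACGTG alone, 7 of 10 (70.0%) of those that rose and 15 of the other 26 (57.7%) have one. No test of this difference was run. A match is only a run of letters, and binding was not measured.

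With VAV1, the HIF alpha subunit HIF1A, the glucose transporter SLC2A1, the lactate transporter SLC16A1 and several enzymes of lower glycolysis were higher than with empty vector, while the PFK2 regulators PFKFB3 and PFKFB4 were at 0.499 and 0.447 of the empty-vector level. At an adjusted p under 0.05 (limma over all genes tested), 18 of the 41 members were higher and 8 were lower. The background was 23.6% of 14410 genes higher and 20.1% lower. CA12 and EGLN3 are among the 18 but passed the filter on low values only through VAV1 libraries. Without them 16 of 39 members were higher and 8 lower. Most changes were small: 5 members, CA12 and EGLN3 among them, changed at least 2-fold, where the background was 10.2% of genes. The median over all 41 was 0.12 on the log2 scale and 0.08 without CA12 and EGLN3, beside 0.02 over all genes tested. The median size of change was 0.27 over the 41, 0.24 without CA12 and EGLN3, and 0.27 over all genes.

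With saracatinib, VAV1 cells had more CA9, SLC2A3, BHLHE40, EPAS1, ALDOC, NDRG1, PFKFB4 and ANKRD37, and less SLC2A1, ADM, PFKFB3, PFKP and HK2, than VAV1 cells with vehicle. Of 41 members 12 were higher and 12 lower (limma, adjusted p under 0.05), against a background of 18.3% higher and 19.1% lower. By role, 3 of 17 glycolytic enzymes were higher and 7 lower, while 6 of 16 other HIF targets were higher and 1 lower. Changes of at least 2-fold were called for 4 members, CA9, SLC2A3, BHLHE40 and EPAS1, where 5.21% of all genes had one. The median over the members was 0.03 on the log2 scale, beside -0.01 over all genes. This comparison uses the same VAV1 vehicle libraries as the VAV1 comparison, so values that stand low in those libraries enter both with opposite sign.

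Set against empty-vector cells with vehicle, VAV1 cells with saracatinib had 19 of 41 members higher and 5 lower (limma), with a background of 22.4% higher and 21.0% lower. Without CA12 and EGLN3 these were 17 and 5 of 39. Of the 16 other HIF targets 10 were higher and 1 lower, with a median of 0.47 on the log2 scale, and without CA12 and EGLN3 these were 8 and 1 of 14, with a median of 0.37. Of the 17 glycolytic enzymes 5 were higher and 2 lower, with a median of 0.00. Changes of at least 2-fold numbered 7, or 5 without CA12 and EGLN3, where 8.78% of all genes had one. The drug and the transgene cannot be told apart in this comparison.

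With RAC1 P29S, the transporter SLC2A1, HIF1A, EPAS1, ADM, CA9, PFKP, GPI and ALDOC were higher than with empty vector, and MXI1, BHLHE40 and both PFK2 regulators were lower. EGLN3 did not pass the filter, and of the other 40 members 17 were higher and 7 lower (limma), against a background of 15.6% of 14036 genes higher and 15.5% lower. Of the 17 glycolytic enzymes 9 were higher and 1 was lower. At least 2-fold changes were called for 2 members, CA9 and ADM, where 7.53% of genes changed that much. The median over the members was 0.15 on the log2 scale, and 0.14 without CA12, beside 0.00 over all genes. The called members include 11 whose call was lost in at least 1 of 15 alternatives, and only 8 were called higher when the variance trend and robust estimation were both left out, a setting that also ended the RAC1 P29S calls of PGAM1 and LDHA.

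**Figure D1:**
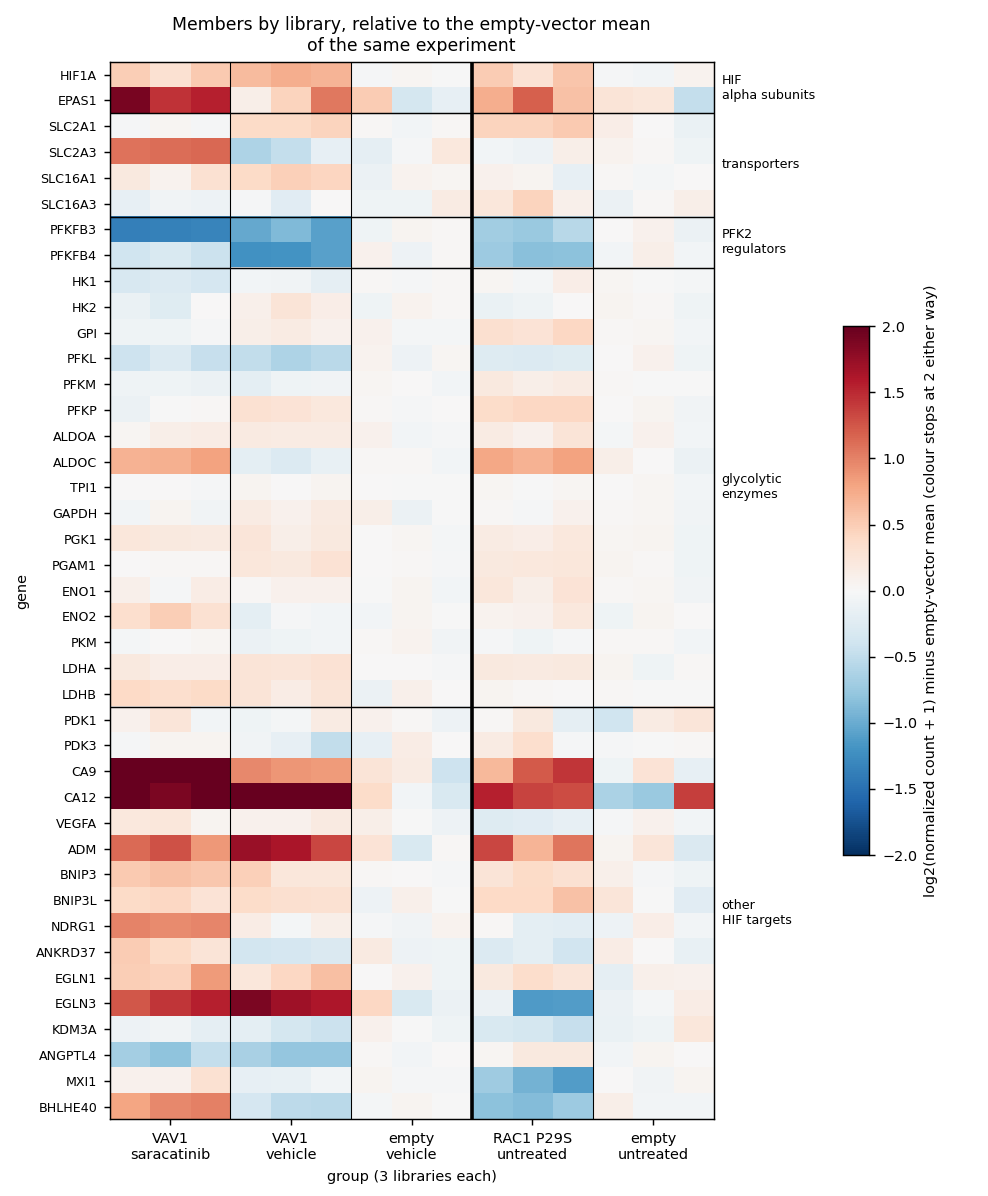
Level of each of the 41 members (rows, by role) in each of the 15 libraries (columns, 3 per group), as log2(normalized count + 1) minus the mean of the empty-vector libraries of the same experiment; red is higher and blue lower, and colours stop at a difference of 2. The PFK2 regulators are blue with either transgene, and SLC2A3, ALDOC, NDRG1 and BHLHE40 are red with saracatinib and blue or near white with VAV1 and vehicle. CA12 and EGLN3 rest on normalized counts near or under 10.

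**Figure D2:**
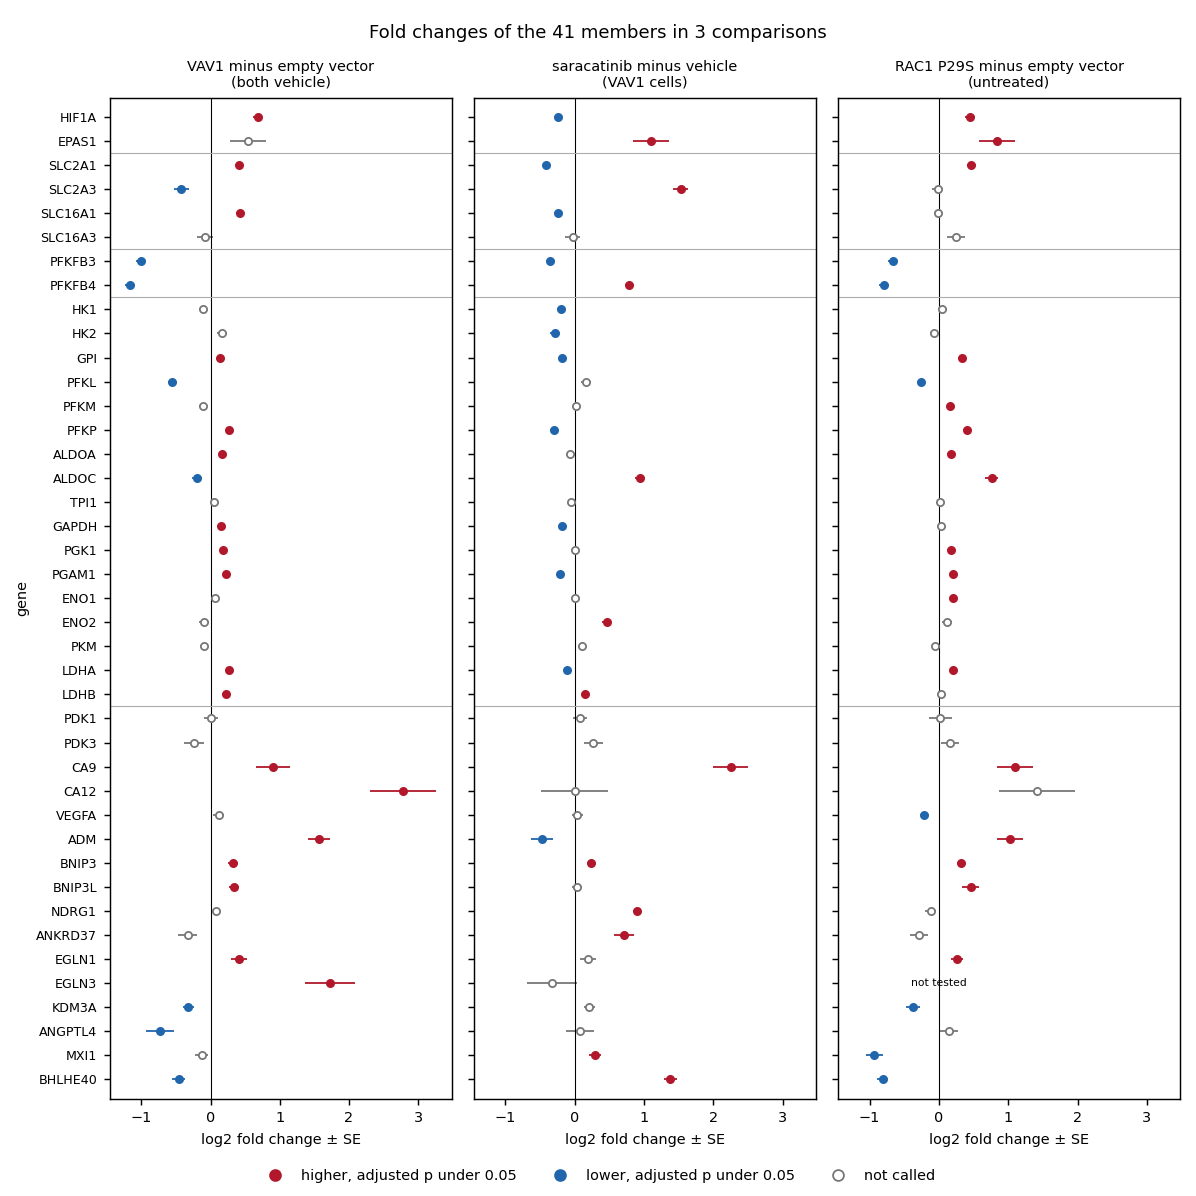
Log2 fold change of each member (points, with the SE of the limma fit as bars) for VAV1 minus empty vector, saracatinib minus vehicle in VAV1 cells, and RAC1 P29S minus empty vector; filled points passed an adjusted p of 0.05. Most glycolytic enzymes lie within 0.5 of 0 in the 3 panels, while CA9, ADM, SLC2A3, BHLHE40 and the PFK2 regulators lie further out. The values plotted for CA12 and EGLN3 rest on empty-vector libraries near or under a normalized count of 10.

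The alpha subunits did not follow one pattern. HIF1A, the broadly expressed HIF alpha subunit, stood at 12.30, 12.11 and 12.34 with saracatinib, at 12.45, 12.54 and 12.49 with VAV1 and vehicle, and at 11.78, 11.85 and 11.80 with empty vector and vehicle. In the untreated libraries HIF1A stood at 12.23, 12.02 and 12.29 with RAC1 P29S and 11.70, 11.68 and 11.80 with empty vector. No HIF1A value of a transgene group overlapped its empty vector. It was higher with VAV1 by 0.68 ± 0.06 (log2 ± SE, adjusted p = 3.81e-07) and with RAC1 P29S by 0.45 ± 0.07 (adjusted p = 0.000723). With saracatinib it fell by 0.24 ± 0.06 (adjusted p = 0.00365) and was still above empty vector by 0.44 ± 0.06 (adjusted p = 3.17e-05); quantile normalization took the saracatinib call to an adjusted p of 0.103.

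EPAS1, the second alpha subunit, known for a narrower tissue range, stood at 8.13, 7.68 and 7.78 with saracatinib, 6.34, 6.67 and 7.29 with VAV1 and vehicle, and 6.73, 5.88 and 6.07 with empty vector and vehicle. The 3 saracatinib values lay above all other values of the experiment, and the VAV1 and empty-vector values overlapped. EPAS1 was higher with saracatinib by 1.10 ± 0.26 (adjusted p = 0.00513). The VAV1 difference was 0.54 ± 0.26 (adjusted p = 0.112), and it passed the threshold only without replicate 1 of either the VAV1 or the empty-vector vehicle group, down to an adjusted p of 0.0229. In untreated cells EPAS1 stood at 5.95, 6.42 and 5.80 with RAC1 P29S, against 5.47, 5.44 and 4.75 with empty vector, a rise of 0.84 ± 0.26 (adjusted p = 0.0338). That call was lost without replicate 3 of the empty vector or without replicate 1 or 2 of RAC1 P29S, with adjusted p up to 0.13.

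The transporters for glucose divided by gene. SLC2A1, the main glucose importer of many tumour cells, stood at 11.56, 11.63 and 11.56 with saracatinib, 11.98, 11.98 and 12.04 with VAV1 and vehicle, and 11.62, 11.54 and 11.62 with empty vector and vehicle. It rose by 0.41 ± 0.04 with VAV1 (adjusted p = 6.96e-06) and fell by 0.42 ± 0.04 with saracatinib (adjusted p = 8.01e-06). The saracatinib values overlapped the empty-vector ones, at a difference of -0.01 ± 0.04 (adjusted p = 0.882). RAC1 P29S libraries had 12.28, 12.27 and 12.35, against 11.96, 11.84 and 11.70 with empty vector, a rise of 0.47 ± 0.06 (adjusted p = 0.000317).

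SLC2A3, a high-affinity glucose transporter best known from neurons, went the other way. Its level was 10.70, 10.73 and 10.77 with saracatinib, 9.0, 9.14 and 9.46 with VAV1 and vehicle, and 9.44, 9.60 and 9.83 with empty vector and vehicle. The saracatinib values were the highest of the 9, and the VAV1 and empty-vector values overlapped at a single library each. SLC2A3 rose by 1.53 ± 0.11 with saracatinib (adjusted p = 4.81e-07) and fell by 0.42 ± 0.11 with VAV1 (adjusted p = 0.00984). With RAC1 P29S it stood at 9.30, 9.26 and 9.48, against 9.43, 9.38 and 9.28 with empty vector, and the groups overlapped. Within libraries, the SLC2A3 level minus the SLC2A1 level moved by 1.95 with saracatinib, by -0.83 with VAV1 and by -0.48 with RAC1 P29S, without overlap of the libraries in any of these comparisons. GENCODE 29 names 3 pseudogenes of SLC2A3, so some of its reads may be shared.

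Of the lactate carriers, SLC16A1 (MCT1), which moves lactate in both directions, stood at 11.58, 11.46 and 11.70 with saracatinib, 11.77, 11.87 and 11.82 with VAV1 and vehicle, and 11.28, 11.46 and 11.43 with empty vector and vehicle. It rose by 0.43 ± 0.06 with VAV1 (adjusted p = 0.000111), with no overlap, and fell by 0.24 ± 0.06 with saracatinib (adjusted p = 0.00947, and up to 0.0625 over the alternatives). With RAC1 P29S the level was 11.77, 11.74 and 11.52, against 11.72, 11.65 and 11.69 with empty vector, a difference of -0.01 ± 0.06 (adjusted p = 0.929). SLC16A3 (MCT4), the lactate exporter usually counted as the HIF-responsive one, was not called in these comparisons, with differences of -0.08 ± 0.11 for VAV1, -0.03 ± 0.11 for saracatinib and 0.25 ± 0.13 for RAC1 P29S.

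The PFK2 regulators make and break down the fructose bisphosphate that activates phosphofructokinase, and both were lower with either transgene. PFKFB3 stood at 9.47, 9.49 and 9.52 with saracatinib, 9.81, 9.95 and 9.76 with VAV1 and vehicle, and 10.76, 10.90 and 10.87 with empty vector and vehicle. The 3 groups did not overlap. PFKFB3 fell by 1.0 ± 0.07 with VAV1 (adjusted p = 4.22e-08), to a normalized count of 917, against 1838 with empty vector. It fell by a further 0.35 ± 0.07 with saracatinib (adjusted p = 0.000968). PFKFB4 stood at 9.89, 9.99 and 9.86 with saracatinib, 9.08, 9.09 and 9.21 with VAV1 and vehicle, and 10.37, 10.19 and 10.31 with empty vector and vehicle. It fell by 1.16 ± 0.07 with VAV1 (adjusted p = 2e-08), and with saracatinib it was higher than with vehicle by 0.79 ± 0.07 (adjusted p = 1.68e-06), though still under empty vector by a difference of -0.38 ± 0.07 (adjusted p = 0.000817). The difference PFKFB3 minus PFKFB4 within a library therefore moved by -1.13 with saracatinib.

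In untreated cells PFKFB3 stood at 10.83, 10.77 and 10.96 with RAC1 P29S, against 11.53, 11.61 and 11.41 with empty vector, and PFKFB4 at 9.74, 9.64 and 9.65 with RAC1 P29S, against 10.41, 10.59 and 10.41 with empty vector. Neither gene's groups overlapped. PFKFB3 fell by 0.66 ± 0.07 (adjusted p = 4.19e-05) and PFKFB4 by a log2 change of -0.79 ± 0.07 (adjusted p = 1.45e-05). None of the alternatives run lost the VAV1, saracatinib or RAC1 P29S calls of either gene.

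**Figure D3:**
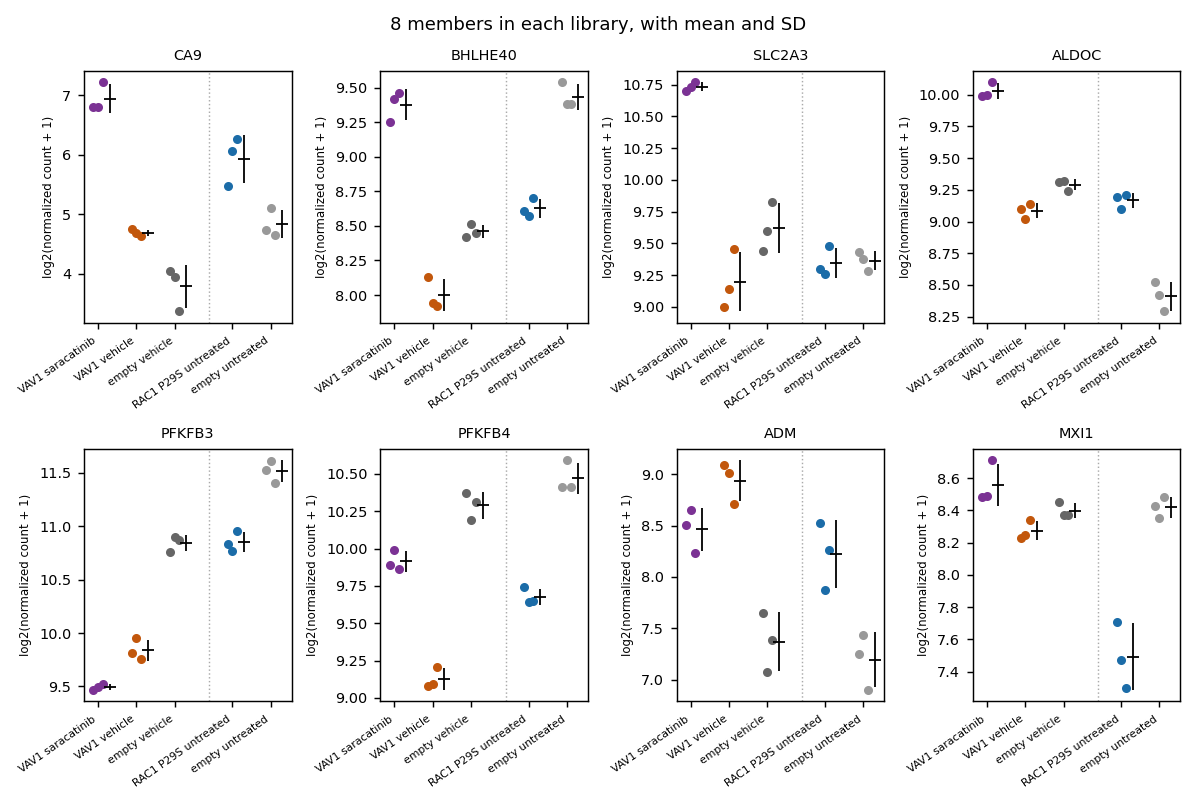
Log2(normalized count + 1) of 8 members in each library (points), with mean and SD beside each group of 3; the dotted line separates the experiments, whose levels are not compared. With saracatinib CA9, BHLHE40, SLC2A3 and ALDOC lie above both other groups of their experiment, PFKFB3 and PFKFB4 lie below the empty vector in every transgene group, and MXI1 is low in the 3 RAC1 P29S libraries.

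Among the glycolytic enzymes, the first steps from glucose to triose phosphates changed unevenly with VAV1. HK1 and HK2, the hexokinases that trap glucose, were not called with VAV1 (-0.11 ± 0.05 and 0.17 ± 0.07) and were lower with saracatinib (-0.20 ± 0.05, adjusted p = 0.00422, and -0.29 ± 0.07, adjusted p = 0.0067). Upper-quartile and quantile scaling called HK1 lower with VAV1, with adjusted p down to 0.0358. HK2 stood at 10.53, 10.42 and 10.67 with saracatinib, against 10.76, 10.92 and 10.80 with vehicle, without overlap. GPI, which isomerizes glucose phosphate, was higher by 0.13 ± 0.04 with VAV1 (adjusted p = 0.0352) and by 0.33 ± 0.05 with RAC1 P29S (adjusted p = 0.00059), and lower with saracatinib (-0.19 ± 0.04, adjusted p = 0.00422). The VAV1 call of GPI was lost without empty-vector vehicle replicate 2 or 3 or VAV1 vehicle replicate 1 or 2, with adjusted p up to 0.13. Quantile normalization took the VAV1 call to 0.236 and the saracatinib call to 0.0757.

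Phosphofructokinase commits sugar to glycolysis, and its 3 genes moved apart. PFKL, the liver-type subunit, stood at 9.86, 10.01 and 9.82 with saracatinib, 9.79, 9.67 and 9.74 with VAV1 and vehicle, and 10.35, 10.18 and 10.32 with empty vector and vehicle. It fell by 0.55 ± 0.07 with VAV1 (adjusted p = 3.12e-05), without overlap, and the saracatinib difference of 0.16 ± 0.07 was not called (adjusted p = 0.0856). RAC1 P29S libraries had PFKL at 9.80, 9.78 and 9.82, against 10.07, 10.14 and 9.98 with empty vector, and it fell by 0.26 ± 0.06 (adjusted p = 0.0114). PFKP, the platelet-type subunit, stood at 11.33, 11.43 and 11.46 with saracatinib, 11.75, 11.72 and 11.65 with VAV1 and vehicle, and 11.46, 11.42 and 11.45 with empty vector and vehicle. It rose by 0.27 ± 0.05 with VAV1 (adjusted p = 0.000609) and fell by 0.30 ± 0.05 with saracatinib (adjusted p = 0.000284), to values that overlapped the empty vector. In RAC1 P29S cells PFKP was higher by 0.40 ± 0.05 (adjusted p = 0.000155).

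The PFKP level minus the PFKL level within a library averaged 1.97 with VAV1 and vehicle and 1.16 with empty vector, a shift of 0.81, and 1.94 with RAC1 P29S against 1.27 with empty vector, a shift of 0.67. The saracatinib shift was -0.47, and none of these groups overlapped. PFKM, the muscle-type subunit, was called only with RAC1 P29S (0.16 ± 0.05, adjusted p = 0.0383), and that call was lost without any one of the 6 untreated libraries, with adjusted p up to 0.138.

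**Figure D4:**
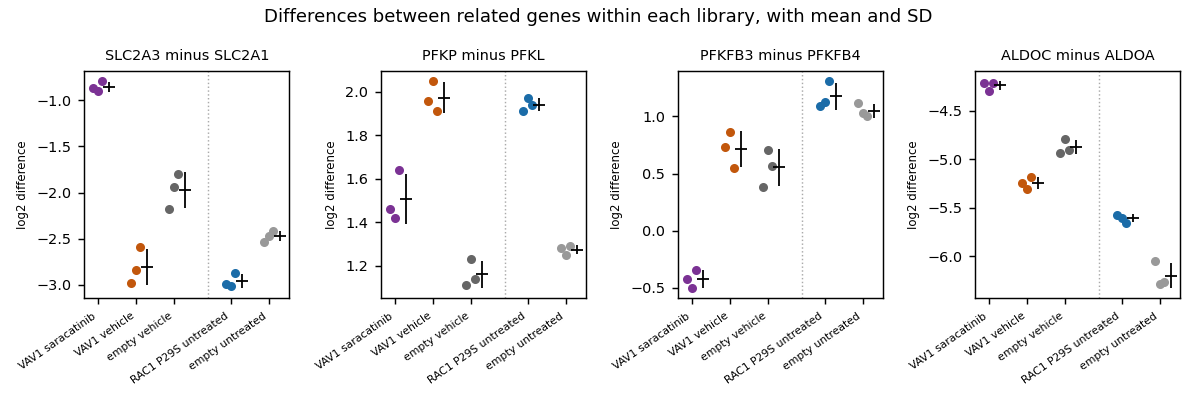
Difference between the log2 levels of related genes within each library (points), with mean and SD beside each group; only the change between groups of one experiment is read, because gene length differs. SLC2A3 minus SLC2A1 shifted by 1.95 with saracatinib, PFKP minus PFKL by 0.81 with VAV1 and 0.67 with RAC1 P29S, PFKFB3 minus PFKFB4 by -1.13 with saracatinib, and ALDOC minus ALDOA by 1.0 with saracatinib and 0.59 with RAC1 P29S.

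Aldolase C, the brain-type aldolase, had the largest change of the 17 enzymes with saracatinib and with RAC1 P29S. ALDOC stood at 9.99, 10.00 and 10.10 with saracatinib, 9.10, 9.02 and 9.14 with VAV1 and vehicle, and 9.31, 9.32 and 9.24 with empty vector and vehicle. The saracatinib libraries were the highest of the 9 and did not overlap the rest. ALDOC rose by 0.94 ± 0.07 with saracatinib (adjusted p = 2.06e-07). Its VAV1 value was -0.20 ± 0.07 (adjusted p = 0.03), a call lost without replicate 1 or 2 of the empty-vector vehicle group or replicate 1 or 2 of the VAV1 vehicle group, with adjusted p up to 0.0964. RAC1 P29S libraries had ALDOC at 9.19, 9.10 and 9.21, against 8.52, 8.42 and 8.29 with empty vector, and it rose by 0.76 ± 0.09 (adjusted p = 0.000113). ALDOA, the general aldolase, was higher by 0.17 ± 0.04 with VAV1 (adjusted p = 0.00479) and 0.17 ± 0.05 with RAC1 P29S (adjusted p = 0.0304). The RAC1 P29S call of ALDOA was lost without replicate 1 or 3 of either untreated group, with adjusted p up to 0.117, and with quantile normalization.

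With saracatinib and with RAC1 P29S, the enzymes of the lower pathway moved by less than ALDOC. TPI1, which interconverts the trioses, was not called in any comparison in the main fits. Quantile normalization called it lower with saracatinib, against vehicle (adjusted p = 0.0025) and against empty vector (adjusted p = 0.0493). PGK1, which makes the first ATP of the payoff phase, was higher by 0.18 ± 0.04 with VAV1 (adjusted p = 0.00205) and 0.17 ± 0.05 with RAC1 P29S (adjusted p = 0.0173), and the RAC1 P29S call was lost without RAC1 P29S replicate 1 or 3, with adjusted p up to 0.0667. PGAM1, the phosphoglycerate mutase, was higher by 0.23 ± 0.04 with VAV1 (adjusted p = 0.000229) and 0.21 ± 0.04 with RAC1 P29S (adjusted p = 0.0035), and lower with saracatinib (-0.21 ± 0.04, adjusted p = 0.000708), to 13.26, 13.28 and 13.28, against 13.47, 13.44 and 13.54 with vehicle. GAPDH was higher by 0.15 ± 0.05 with VAV1 (adjusted p = 0.0301) and lower by a change of -0.18 ± 0.05 with saracatinib (adjusted p = 0.0163). Its VAV1 call was lost without empty-vector vehicle replicate 2 or 3 or VAV1 vehicle replicate 1 or 3, with adjusted p up to 0.122, and its saracatinib call without replicate 1 or 3 of either group, with adjusted p up to 0.0643. Quantile normalization and upper-quartile scaling also ended the VAV1 call of GAPDH. GENCODE 29 names 62 pseudogenes of GAPDH and 13 of PGAM1, so reads may be shared among copies and both are uncertain.

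ENO1, the general enolase, was higher with RAC1 P29S (0.20 ± 0.04, adjusted p = 0.00529, and up to 0.196 over the alternatives, with quantile normalization among those that lost it) and was not called with VAV1 or saracatinib. Quantile normalization called ENO1 higher with VAV1 (adjusted p = 0.0118). Over the alternatives its saracatinib value ran from -0.21 to 0.05, with adjusted p down to 0.0206. ENO2, the neuronal enolase, stood at 10.22, 10.38 and 10.20 with saracatinib, against 9.70, 9.87 and 9.84 with vehicle, and rose by 0.46 ± 0.07 (adjusted p = 0.000202). PKM, a pyruvate kinase gene, was not called, with differences of -0.09 ± 0.04, 0.10 ± 0.04 and -0.05 ± 0.04 for VAV1, saracatinib and RAC1 P29S. PKM was called lower with VAV1 and higher with saracatinib under median-of-ratios, upper-quartile and quantile scaling, and lower with RAC1 P29S under quantile scaling. It was also called with VAV1 without empty-vector vehicle replicate 3, and with saracatinib without empty-vector vehicle replicate 2 or 3 or with only the compared groups in the fit.

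Lactate dehydrogenase turns pyruvate into lactate and back. LDHA, its muscle-type subunit and a classical HIF target, stood at 13.90, 13.85 and 13.84 with saracatinib, 13.97, 13.95 and 14.0 with VAV1 and vehicle, and 13.71, 13.72 and 13.69 with empty vector and vehicle. It rose by 0.27 ± 0.03 with VAV1 (adjusted p = 3.28e-05) and by 0.20 ± 0.04 with RAC1 P29S (adjusted p = 0.00658). With saracatinib it fell by 0.11 ± 0.03 (adjusted p = 0.0248), which was lost without VAV1 vehicle replicate 3 or saracatinib replicate 2 or 3, with adjusted p up to 0.102. LDHB, the heart-type subunit, rose by 0.22 ± 0.05 with VAV1 (adjusted p = 0.00284) and by 0.15 ± 0.05 with saracatinib (adjusted p = 0.0274), the second call being lost without VAV1 vehicle replicate 2 or saracatinib replicate 1 or 3, with adjusted p up to 0.105, and with quantile normalization, at an adjusted p of 0.335.

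Summed over the 17 enzymes, glycolytic transcripts made up 2.06 ± 0.02% of a library's normalized counts with saracatinib, 2.11 ± 0.02% with VAV1 and vehicle and 2.01 ± 0.04% with empty vector and vehicle (SD, n = 3 each). The share was 2.35 ± 0.05% with RAC1 P29S and 2.23 ± 0.05% with its empty vector. The VAV1 libraries with vehicle spanned 2.09% to 2.13% and the empty-vector ones 1.98% to 2.05%, and the RAC1 P29S libraries spanned 2.30% to 2.40%, against 2.17% to 2.27% with empty vector. The sum weighs genes by their counts, and GAPDH, ENO1 and PKM counted most. Their mean normalized counts with empty vector and vehicle were 85314, 51760 and 51622. GAPDH had 94587 with VAV1 and vehicle, and its reads may be shared with pseudogenes. No test of this share was run. Mitochondrially encoded transcripts took 1.70 ± 0.28% with saracatinib, 1.21 ± 0.19% with VAV1 and vehicle and 1.66 ± 0.21% with empty vector and vehicle (SD, n = 3 each), and their part in the enzyme results was not tested.

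The carbonic anhydrases, which set extracellular pH, were low in these cells. CA9, often used as a marker of hypoxia, stood at 6.80, 6.80 and 7.22 with saracatinib, 4.75, 4.68 and 4.64 with VAV1 and vehicle, and 4.05, 3.95 and 3.37 with empty vector and vehicle, and the 3 groups did not overlap. The mean normalized count of CA9 was 123 with saracatinib, 24.8 with VAV1 and vehicle and 13.1 with empty vector and vehicle, and 1 of the 3 empty-vector libraries lay under the filter of 10. CA9 rose by 2.25 ± 0.25 with saracatinib (adjusted p = 1.08e-05) and by 0.90 ± 0.25 with VAV1 (adjusted p = 0.00954). With RAC1 P29S it stood at 5.48, 6.06 and 6.26, against 4.74, 5.11 and 4.66 with empty vector, and rose by 1.10 ± 0.26 (adjusted p = 0.00908). CA12 stood at 4.19, 3.18 and 4.84 with saracatinib, 3.86, 4.04 and 4.32 with VAV1 and vehicle and 1.65, 1.24 and 0.99 with empty vector and vehicle, where every library was under a normalized count of 10, so no fold change is given. In untreated cells CA12 stood at 4.62, 4.41 and 4.37 with RAC1 P29S, against 2.42, 2.31 and 4.45 with empty vector, where replicate 3 stands apart. It passed the filter there through the RAC1 P29S libraries and this replicate, and no test is given.

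ADM, the vasodilator peptide adrenomedullin, was higher with both transgenes. It stood at 8.51, 8.65 and 8.23 with saracatinib, 9.09, 9.01 and 8.71 with VAV1 and vehicle, and 7.65, 7.07 and 7.39 with empty vector and vehicle. All VAV1 libraries lay above all empty-vector ones, with or without saracatinib. ADM rose by 1.57 ± 0.16 with VAV1 (adjusted p = 3.49e-06) and by 1.03 ± 0.19 with RAC1 P29S (adjusted p = 0.00214), where it stood at 8.53, 7.87 and 8.26, against 7.25, 7.43 and 6.90 with empty vector. With saracatinib it fell by 0.47 ± 0.16 (adjusted p = 0.0287), lost without VAV1 vehicle replicate 1 or 2 or saracatinib replicate 1 or 3, with adjusted p up to 0.118. VEGFA, the angiogenic growth factor, was not called with VAV1 (0.12 ± 0.08, adjusted p = 0.217) or saracatinib (0.04 ± 0.08, adjusted p = 0.716). Its RAC1 P29S value of -0.21 ± 0.07 (adjusted p = 0.048) was lost without any single untreated library except empty-vector replicate 3, with adjusted p up to 0.149. ANGPTL4, an inhibitor of lipoprotein lipase, stood at 5.19, 5.07 and 5.07 with VAV1, against 5.87, 5.79 and 5.85 with empty vector, and fell by 0.73 ± 0.20 (adjusted p = 0.00913). It was not called with saracatinib (0.08 ± 0.20) or RAC1 P29S (0.14 ± 0.14).

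BNIP3 and BNIP3L, receptors that mark mitochondria for removal, were higher with both transgenes. BNIP3 rose by 0.32 ± 0.07 with VAV1 (adjusted p = 0.0018) and 0.32 ± 0.06 with RAC1 P29S (adjusted p = 0.00401), and by 0.24 ± 0.07 with saracatinib (adjusted p = 0.0136), the saracatinib call being lost without VAV1 vehicle replicate 2 or 3 at an adjusted p up to 0.0636. GENCODE 29 names 39 pseudogenes of BNIP3, which makes its value uncertain. BNIP3L rose by 0.34 ± 0.07 with VAV1 (adjusted p = 0.00166). With RAC1 P29S it stood at 9.39, 9.39 and 9.58, against 9.23, 8.98 and 8.77 with empty vector, and rose by 0.46 ± 0.12 (adjusted p = 0.0126), lost without RAC1 P29S replicate 3, or without both the variance trend and robust estimation, at an adjusted p up to 0.0574.

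NDRG1, a stress-responsive gene widely used as a hypoxia reporter, stood at 11.06, 11.02 and 11.05 with saracatinib, 10.22, 10.03 and 10.18 with VAV1 and vehicle, and 10.05, 10.00 and 10.14 with empty vector and vehicle. Only the saracatinib libraries stood apart. It rose by 0.90 ± 0.06 with saracatinib (adjusted p = 1.65e-07) and was not called with VAV1 (0.08 ± 0.06) or RAC1 P29S (-0.12 ± 0.08). ANKRD37, an ankyrin repeat gene of hypoxia signatures, rose by 0.71 ± 0.14 with saracatinib (adjusted p = 0.00121), at 7.42, 7.30 and 7.18, against 6.55, 6.59 and 6.63 with vehicle. Its values with VAV1 (-0.33 ± 0.14, adjusted p = 0.0702) and RAC1 P29S (-0.29 ± 0.13, adjusted p = 0.134) were not called. Without the variance trend and robust estimation the VAV1 value was called, at an adjusted p of 0.0289.

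The prolyl hydroxylases, which mark HIF alpha subunits for breakdown and are themselves HIF targets, divided by level against the filter. EGLN1 rose by 0.41 ± 0.11 with VAV1 (adjusted p = 0.00947) and 0.26 ± 0.09 with RAC1 P29S (adjusted p = 0.0418), the RAC1 P29S call being lost without empty-vector replicate 1 or any RAC1 P29S replicate, with adjusted p up to 0.14. EGLN3 stood at 3.73, 3.92 and 4.04 with saracatinib, 4.37, 4.19 and 4.10 with VAV1 and vehicle, and 2.91, 2.19 and 2.37 with empty vector and vehicle, where all libraries were under a normalized count of 10, so no fold change is given. It was not tested in untreated cells. KDM3A, a histone demethylase, fell by 0.32 ± 0.08 with VAV1 (adjusted p = 0.00587). With RAC1 P29S it stood at 9.47, 9.43 and 9.32, against 9.64, 9.69 and 10.01 with empty vector, and fell by 0.37 ± 0.10 (adjusted p = 0.0169), lost without RAC1 P29S replicate 3 at an adjusted p up to 0.0687. PDK1 and PDK3, kinases that shut pyruvate dehydrogenase, were not called in any comparison, with differences of 0.01 ± 0.10 and -0.24 ± 0.14 for VAV1.

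The transcriptional repressors differed between the conditions. BHLHE40, a basic helix-loop-helix repressor of the clock, stood at 9.25, 9.42 and 9.46 with saracatinib, 8.13, 7.94 and 7.92 with VAV1 and vehicle, and 8.42, 8.51 and 8.45 with empty vector and vehicle, without overlap. It fell by 0.46 ± 0.09 with VAV1 (adjusted p = 0.00107), and with saracatinib it was above VAV1 with vehicle by 1.38 ± 0.09 (adjusted p = 9.32e-08) and above empty vector by 0.92 ± 0.09 (adjusted p = 3.69e-06). With RAC1 P29S it stood at 8.61, 8.57 and 8.70, against 9.54, 9.38 and 9.38 with empty vector, and fell by 0.81 ± 0.08 (adjusted p = 4.07e-05). MXI1, an antagonist of MYC, stood at 7.71, 7.47 and 7.30 with RAC1 P29S, against 8.43, 8.35 and 8.48 with empty vector, and fell by 0.93 ± 0.12 (adjusted p = 0.000267). The VAV1 value of MXI1 was -0.13 ± 0.09 (adjusted p = 0.29), and with saracatinib it was higher by 0.29 ± 0.09 (adjusted p = 0.0245), lost without VAV1 vehicle replicate 1 or 2 or saracatinib replicate 3, with adjusted p up to 0.115.

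The 2 transgenes were set side by side over the 40 members tested in both experiments, which share no libraries. Higher with both were 13, which is 76.5% of the 17 members higher with VAV1 and 76.5% of the 17 higher with RAC1 P29S. CA12 is among the 17 higher with VAV1, and without it the share of these is 81.2%. The shared members were HIF1A, SLC2A1, GPI, PFKP, ALDOA, PGK1, PGAM1, LDHA, CA9, ADM, BNIP3, BNIP3L and EGLN1. Lower with both were 5, PFKL, PFKFB3, PFKFB4, KDM3A and BHLHE40, which is 62.5% of the 8 lower with VAV1 and 71.4% of the 7 lower with RAC1 P29S. Over all 13810 genes tested in both, 46% of those higher with VAV1 and 69.1% of those higher with RAC1 P29S were shared, and 49.8% and 65.6% of the lower ones.

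The difference of the effects was tested for each gene in a fit over all 15 libraries. The VAV1 effect exceeded the RAC1 P29S effect in 4 members and lay below it in 7 (limma, adjusted p under 0.05), against a background of 8.14% of genes above and 7.70% below. No member differed by at least 2-fold at that threshold, where 2.56% of all genes did. ALDOC had the largest called difference, -0.96 ± 0.10 (adjusted p = 7.08e-06), being higher with RAC1 P29S than its empty vector and slightly lower with VAV1. ANGPTL4 (-0.87 ± 0.22, adjusted p = 0.0131), PFKFB4 (-0.37 ± 0.10, adjusted p = 0.0161) and PFKM (-0.28 ± 0.07, adjusted p = 0.0109) were also lower in the VAV1 effect. MXI1 (0.80 ± 0.15, adjusted p = 0.00134) and SLC16A1 (0.44 ± 0.10, adjusted p = 0.00486) were higher in it. These 6 held in every alternative run. HIF1A (0.23 ± 0.09, adjusted p = 0.103), SLC2A1 (-0.06 ± 0.08), ADM (0.54 ± 0.26, adjusted p = 0.182) and CA9 (-0.20 ± 0.35) did not pass, which does not show equal effects. Vehicle was given in one experiment and nothing in the other, so experiment and transgene cannot be told apart in this difference.

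**Figure D5:**
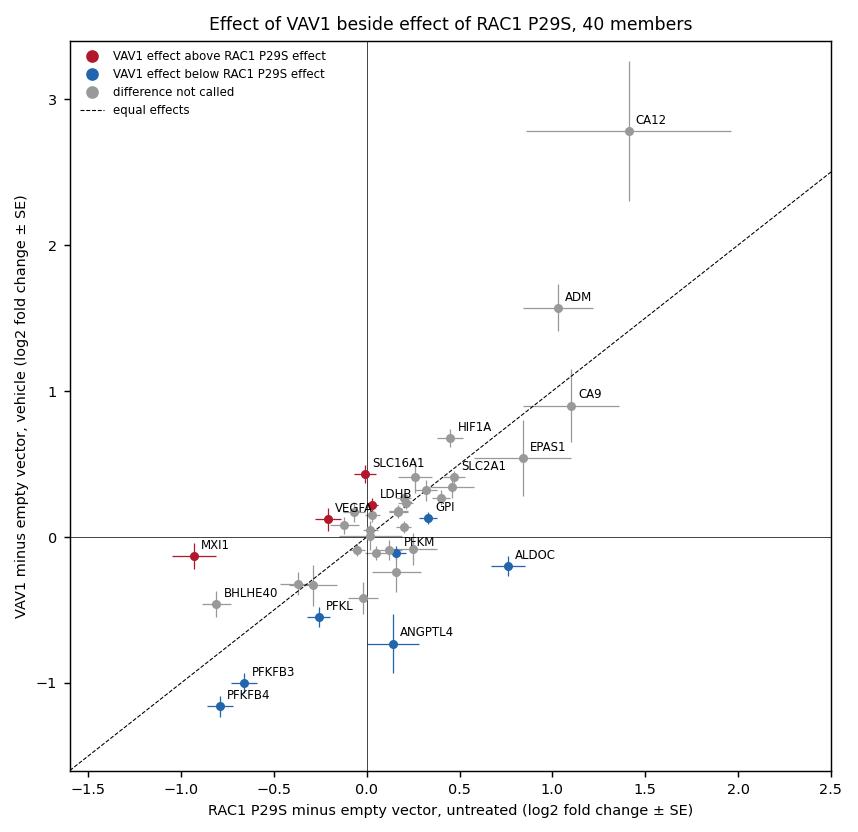
Log2 fold change with VAV1 (vertical) beside that with RAC1 P29S (horizontal) for the 40 members tested in both, with SE bars from the limma fits; the dashed line marks equal effects, red and blue points passed the test of the difference. ALDOC and ANGPTL4 lie below the line, and MXI1 and SLC16A1 above it; the CA12 point rests on empty-vector libraries near or under a normalized count of 10.

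Outside the 41, 45 other genes of carbon metabolism were listed. Of these, 35 were tested with VAV1 and saracatinib, and 12 were higher and 5 lower with VAV1, 8 higher and 9 lower with saracatinib (limma). Over all genes tested 23.6% were higher and 20.1% lower with VAV1, and 18.3% higher and 19.1% lower with saracatinib. With RAC1 P29S 3 of 33 were higher and 8 lower, where 15.6% of all genes were higher and 15.5% lower. PDK4, the pyruvate dehydrogenase kinase of fasting, was lower by a log2 change of -1.49 ± 0.12 with VAV1 (adjusted p = 3.36e-07) and -1.40 ± 0.14 with RAC1 P29S (adjusted p = 4.24e-05) and higher with saracatinib by 1.77 ± 0.12 (adjusted p = 1.19e-07). PGM2, a phosphopentomutase, was higher with VAV1 (0.83 ± 0.06) and RAC1 P29S (0.36 ± 0.05), and PGM1, which links glycogen and glycolysis, was lower with both (-0.43 ± 0.05 and -0.48 ± 0.06) and higher with saracatinib (0.40 ± 0.05). PHGDH, which diverts glycolysis to serine, fell with saracatinib (-1.12 ± 0.04, adjusted p = 2.2e-10), as did mitochondrial PCK2 (-1.27 ± 0.08), while the phosphatase PDP1 rose (1.16 ± 0.06, adjusted p = 1.13e-08).

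A further 40 symbols were listed for the HIF pathway, some of them older names of genes also listed. Of these, 34 were tested, and 12 were higher and 13 lower with VAV1 (limma). With saracatinib 14 were higher and 4 lower, and with RAC1 P29S 9 were higher and 8 lower. These counts stand beside the same shares over all genes, 23.6% and 20.1% with VAV1, 18.3% and 19.1% with saracatinib and 15.6% and 15.5% with RAC1 P29S, for higher and lower. CITED2, a HIF target that competes with HIF for its coactivators, was higher with VAV1 (2.60 ± 0.08, adjusted p = 1.36e-11) and RAC1 P29S (2.06 ± 0.11, adjusted p = 2.86e-07). CITED2 was also higher with saracatinib than with vehicle (0.51 ± 0.08, adjusted p = 0.000167). ARNT2, a paralogue of the HIF partner ARNT, was lower with VAV1 (-1.77 ± 0.06, adjusted p = 6.36e-11) and RAC1 P29S (-0.91 ± 0.07) and higher with saracatinib (1.85 ± 0.06, adjusted p = 1.39e-10). STC1, a secreted stanniocalcin, was higher with saracatinib by 3.03 ± 0.09 (adjusted p = 8.18e-11). STC1 was also higher with VAV1 (0.94 ± 0.09, adjusted p = 2.55e-06) and RAC1 P29S (1.10 ± 0.11, adjusted p = 2.89e-05). DDIT4, an inhibitor of mTORC1, was lower with VAV1 (-0.65 ± 0.05) and RAC1 P29S (-0.27 ± 0.05) and higher with saracatinib (0.45 ± 0.05). Among the 4 genes lower with saracatinib were STC2 (-1.42 ± 0.16, adjusted p = 2.03e-05) and HMOX1 (-0.57 ± 0.10, adjusted p = 0.000502). Both were higher with VAV1, STC2 by 2.18 ± 0.16 and HMOX1 by 1.32 ± 0.10. They were also higher with RAC1 P29S, STC2 by 1.82 ± 0.14 and HMOX1 by 1.11 ± 0.08.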

How the data were processed

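Total RNA of 15 A375 libraries was sequenced after an Illumina TruSeq preparation, per the labels' protocols. Each library's deposited file pairs gene symbols with log2 values made by the authors, and the values fit the log2 of a normalized count plus 1. The submitters' processing notes name kallisto, DESeq2 and GRCh38, and versions and settings are not given in the sources used here. Low values lay near multiples of a step that differed between genes, so whole reads were not recovered, depth is unknown and no counting interval is given.

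Members and gene lists were chosen with earlier results of these data known, and the lists are no independent support. Genes that reached a normalized count of 10 in 3 or more libraries were fitted with limma 3.58.1 in R 4.3.3: 1 mean per group, empirical Bayes with a variance trend and robust estimation, two-sided, Benjamini-Hochberg adjusted p under 0.05 over all genes tested. The 9 vehicle and saracatinib libraries shared a fit, the 6 untreated libraries had their own, and the difference of effects used all 15. Values in every library are given for up to 6 called members per direction and comparison with the largest fold change, and for HIF1A and EPAS1; some further members are shown the same way, and up to 3 genes per direction from each other list are named by adjusted p, with 1 gene of the HIF pathway list not reported here. The method was tested on simulated data. Alternatives were 2 other filters, a pseudocount of 8, median-of-ratios, upper-quartile and quantile scaling, a fit without trend and robust estimation, other libraries in the fit, a replicate block and leaving out each library. Replicate numbers do not pair libraries: residual correlations between libraries of one number were -0.0547 to 0.0125. Coordinates come from GENCODE 29 and promoter windows from a RefSeq table on GRCh38.p14.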

Additional observations from a re-analysis of the deposited data

Results flagged for a closer look

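The VAV1 effect and the RAC1 P29S effect differed (limma, adjusted p under 0.05 over 13810 genes, interaction over all 15 libraries) for 11 members. On the log2 scale, as VAV1 effect minus RAC1 P29S effect, the difference was -0.96 for ALDOC, -0.87 for ANGPTL4, -0.37 for PFKFB4, -0.34 for PFKFB3, -0.29 for PFKL, -0.28 for PFKM and -0.21 for GPI. It was 0.80 for MXI1, 0.44 for SLC16A1, 0.33 for VEGFA and 0.20 for LDHB. The calls of GPI, PFKL, PFKFB3, LDHB and VEGFA were each lost when some single libraries were left out, and the other 6 were not lost in any alternative run. The experiments differ in vehicle as well as transgene, which cannot be told apart here.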

How the results depend on the processing

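No called member changed direction in any alternative run. Of the members called, 21 of 26 with VAV1, 15 of 24 with saracatinib, 18 of 24 for VAV1 with saracatinib against empty vector, 12 of 24 with RAC1 P29S and 6 of 11 for the difference of effects were tested and called in every alternative. CA12 and EGLN3 in the comparisons with VAV1 against empty vector, and CA9 with RAC1 P29S, were called wherever tested but did not pass every filter. CA12 and EGLN3 passed the main filter there only through VAV1 libraries, so their repeated calls are no support for a change. Without the variance trend and robust estimation, RAC1 P29S had 8 members higher in place of 17. For the difference of effects, upper-quartile scaling left 2 members higher in place of 4 and moved the share of higher among all called genes to 40.3%, beside 51.4%. Leaving out each library gave 2 to 4 members higher and 4 to 7 lower for that difference, with main counts of 4 and 7; the lowest counts came without empty-vector vehicle replicate 3, VAV1 vehicle replicate 3, empty-vector untreated replicate 2 or RAC1 P29S replicate 1 or 2 for higher, and without replicate 3 of either untreated group for lower. No scaling moved the median of all genes by over 0.1. With the replicate block, for libraries that share only a number, the members higher and lower were 17 and 7 with VAV1, 12 and 11 with saracatinib, 18 and 5 for VAV1 with saracatinib against empty vector, 15 and 6 with RAC1 P29S, and 3 and 5 for the difference. The causes of these shifts were not tested. With 3 libraries a group and unknown read depth, small changes of low members such as CA12 and EGLN3 may have been missed. How detection depends on level was not tested.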
